A study of Sus scrofa with 26 samples.

Results

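LPL, VLDLR, CD36, SLC27A1, FABP4, FABP5 and ACSL1 carry fatty acids from circulating triglycerides into the adipocyte, and their transcripts were followed here in the subcutaneous adipose tissue (SCAT) of 26 pigs. Members were all array probes that were not controls and whose gene name, accession or description in the files is one of these 7 genes. This gave 35 of the 60305 probes of the array, of which 34 passed the filter on dim probes and were tested among 44703 probes. LPL had 7 probes, FABP4 had 8, CD36 had 5, ACSL1, FABP5 and VLDLR had 4 each and SLC27A1 had 3. The probe left out of the tests was a VLDLR probe that was well above background on 3 of the 26 arrays. All other member probes were well above background on every array, except an SLC27A1 probe that was so on 8 arrays.

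In white fat, lipoprotein lipase (LPL) is secreted by adipocytes, moved to the capillary wall and hydrolyses the triglycerides of chylomicrons and very low density lipoproteins. The very low density lipoprotein receptor (VLDLR) binds these particles and favours their hydrolysis. The fatty acids released are taken up with the help of CD36 and of the transport protein FATP1, encoded by SLC27A1, are bound in the cytosol by FABP4 and FABP5, and are activated to acyl-CoA by ACSL1, which traps them in the cell for esterification.

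The animals were castrated growing pigs of the Creole breed, of the Large White (LW) breed and of the cross between both breeds (F1), with 1 pig on each single-colour array. Pigs at thermoneutrality (TN) were kept at 24 °C, namely 3 Creole, 4 F1 and 4 LW pigs, and each breed had 5 pigs under heat stress (HS), which makes 15 HS arrays against 11 TN arrays. The labels of the HS samples give 30 °C, whereas the series text gives 32 °C for 5 days. TN pigs were slaughtered before the temperature was raised, so that temperature, day of slaughter and age at slaughter cannot be told apart. The study also reports a lower feed intake under heat, which cannot be told apart from temperature either. The methods describe littermates shared among groups and pigs housed by pen, but the labels do not give litter or pen and the pigs were treated as independent. In a whole tissue, fewer cells of a type and less RNA per cell cannot be told apart.

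Between 41314 and 46185 probes per array were well above background, no spot was saturated, and the number of arrays limits the precision. The arrays lay on 5 slides, each with TN and HS pigs. Adipocyte markers were bright in all pigs, with a mean level over 9 markers between 15.21 and 15.78 on the log2 scale. All levels below are log2 of the quantile-normalized median intensity of a probe, and all differences are in log2 units with their standard error (SE). A probe was called when its limma p-value was under 0.05 after Benjamini-Hochberg adjustment across the 44703 probes. Levels of different probes are not compared, because each probe binds with its own strength.

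The sequences below are the probes on which the results turn, each given by the first 30 of its 60 bases, 5′ to 3′, as the array files list them. The position is the base of the pig transcript at which the probe starts, as stated in the files, which place none of these probes on a chromosome. The LPL set is shown because its probes gave opposite breed differences along the transcript.
LPL, start 335: acagaatctgtggctaactgtcatttcaac
LPL, start 669: ccaagaagaaggtcaatagaattactggcc
LPL, start 2157: gataaagcactgaagctttaaacactcttg
LPL, start 2473: atgatggttactgttcaattttaggcttac
LPL, start 2599: tacaaattttgggcaaggattgtttttaca
The ACSL1 and FABP4 sets are shown because they hold the members called between HS and TN.
ACSL1, start 2506: ttaagactttgctatttctgagacgtctgc
ACSL1, start 3070: ccaccccccagaataaactctcaggcaagg
FABP4, start 207: tggggatatgatcaccattagtcagaaagt
FABP4, start 811: gtgctattactgaatgtgaagtccttcttt
No pair of LPL probes shared more than 7 bases in a row, and no pair of ACSL1 probes more than 9. Probes of the other fatty acid binding genes were less separate. The FABP5 probes starting at bases 509 and 512 shared 56 bases, and the FABP4 probe starting at base 207 shared 39 bases with another FABP4 probe, so that these probes do not count as independent measurements of their gene.

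The first comparison asked which of the uptake genes differed between HS and TN pigs once the breed was taken into account. ACSL1 and FABP4 were lower in HS pigs, LPL differences were positive on each of its probes (apart from the brightest under percentile scaling) and did not pass the test. With the same processing CD36, FABP5, SLC27A1 and VLDLR showed differences near 0. Of the 34 tested member probes, 4 were called, 2 of ACSL1 and 2 of FABP4, and all 4 were lower in HS. That is 11.8% of the member probes, against 12.2% of all tested probes called in this comparison, 5.17% higher and 7.02% lower. The share of called probes among the members was therefore close to that of the array in this setting, and both moved with the processing. Scaling to the 75th percentile gave 9 members (26.5%) against 14.1% of all tested probes, with 5 more probes of FABP4 and ACSL1, all lower in HS. Omission of Creole HS replicate 3 gave 7 members (20.6%) against 14.7%, and omission of the 6 arrays highest in keratinocyte markers (keratinocyte-rich arrays) gave 1 member (2.94%) against 5.93%. The median difference was -0.04 over the members and 0.00 over all tested probes.

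**Figure D1:**
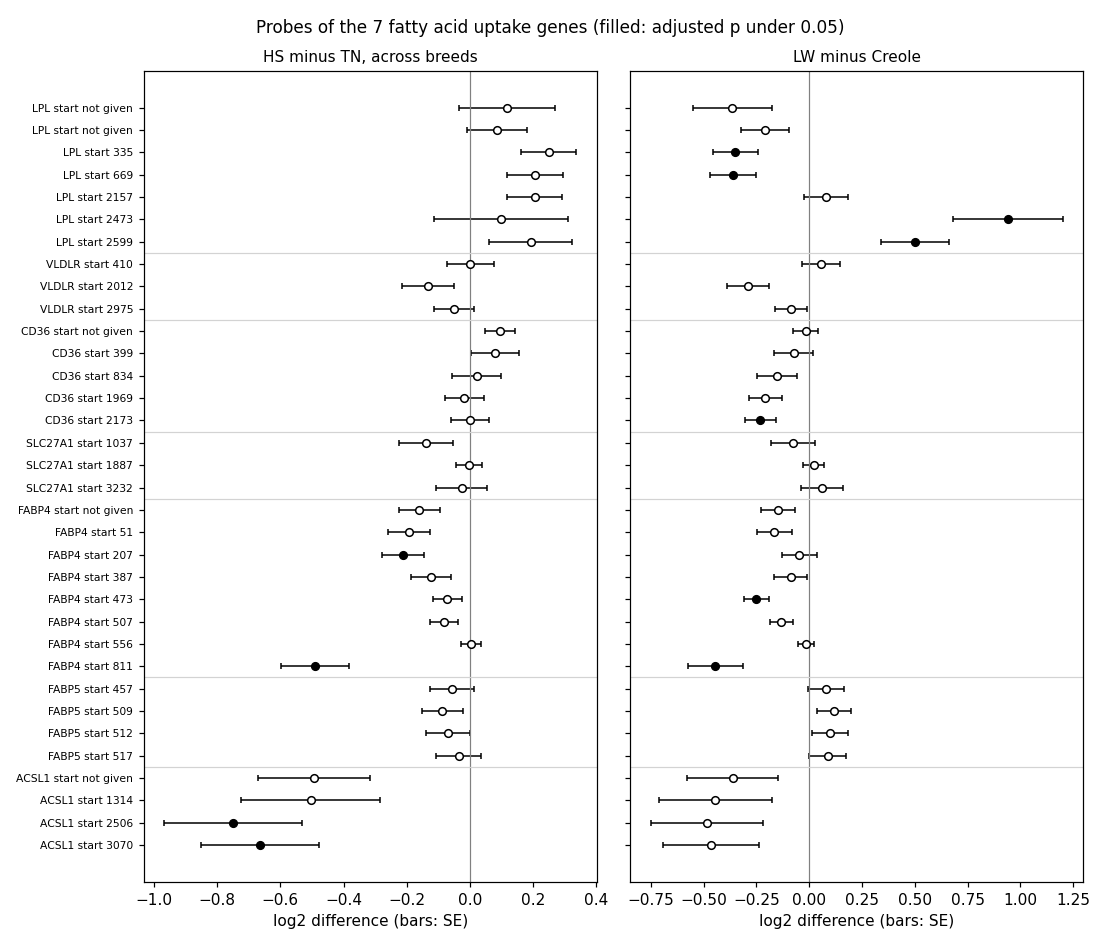
Log2 difference and SE (bars) of each of the 34 tested member probes for HS minus TN across breeds (left) and LW minus Creole (right), grouped by gene and ordered by start in the transcript. Filled points have an adjusted p under 0.05. ACSL1 probes lie left of 0 on the left panel, and LPL probes lie on both sides of 0 on the right panel.

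ACSL1, the long-chain acyl-CoA synthetase of the adipocyte, had the largest HS differences of the 7 genes. On the probe starting at base 3070, Creole pigs were at 13.20, 13.31 and 13.40 in TN and at 11.60, 12.36, 12.97, 12.99 and 13.06 in HS. LW pigs were at 12.66, 13.04, 13.11 and 13.31 in TN and at 11.71, 11.75, 11.82, 12.00 and 12.58 in HS. F1 pigs were at 12.28, 12.29, 12.99 and 13.41 in TN and at 11.82, 12.02, 12.49, 13.09 and 13.15 in HS. In Creole and in LW all 5 HS pigs lay below the lowest TN pig of their breed, whereas in F1 both temperatures overlapped over most of their range. The HS minus TN difference across breeds was -0.66 ± 0.19 (SE), a level 1.58 times lower in HS (limma, adjusted p = 0.0206), and 13 of 15 HS pigs lay below the TN mean of their breed.

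The other ACSL1 probes also gave negative differences across breeds. The probe starting at base 2506 differed by -0.75 ± 0.22 (adjusted p = 0.0249), a level 1.68 times lower in HS. Its LW pigs were at 12.03, 12.31, 12.37 and 12.68 in TN and at 10.88, 11.02, 11.26, 11.41 and 11.72 in HS, with no overlap. The probe starting at base 1314 differed by -0.50 ± 0.22 (adjusted p = 0.136), and the brightest probe, whose start is not given, by -0.49 ± 0.18 (adjusted p = 0.0663). Neither passed the threshold here. The brightest probe did so under scaling to the 75th percentile (-0.61, adjusted p = 0.0289), with array weights (-0.50, adjusted p = 0.0347) and without F1 TN replicate 2 or 4, F1 HS replicate 4 or 5 or Creole HS replicate 3 (-0.58 to -0.52, adjusted p up to 0.0479). The correlations between ACSL1 probes over the 26 arrays ranged from 0.94 to 0.98. When the 4 probes were averaged, ACSL1 differed by -0.60 and passed the threshold (adjusted p = 0.0471). The HS difference of both called probes was negative on all 5 slides, from -1.40 to -0.14 for the probe at base 3070 and from -1.43 to -0.26 for the probe at base 2506. These slide differences are not adjusted for breed. On 1 slide both TN pigs were LW and the HS pigs were Creole and F1, and another slide held 1 TN pig. Both calls were lost without the 4 arrays highest in skeletal muscle markers (muscle-rich arrays), with differences of -0.64 at base 3070 (adjusted p = 0.0503) and -0.73 at base 2506 (adjusted p = 0.0572), and the call at base 2506 also without the 6 arrays highest in keratinocyte markers (-0.83, adjusted p = 0.0552). The differences themselves were of similar size in these smaller sets of arrays.

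**Figure D2:**
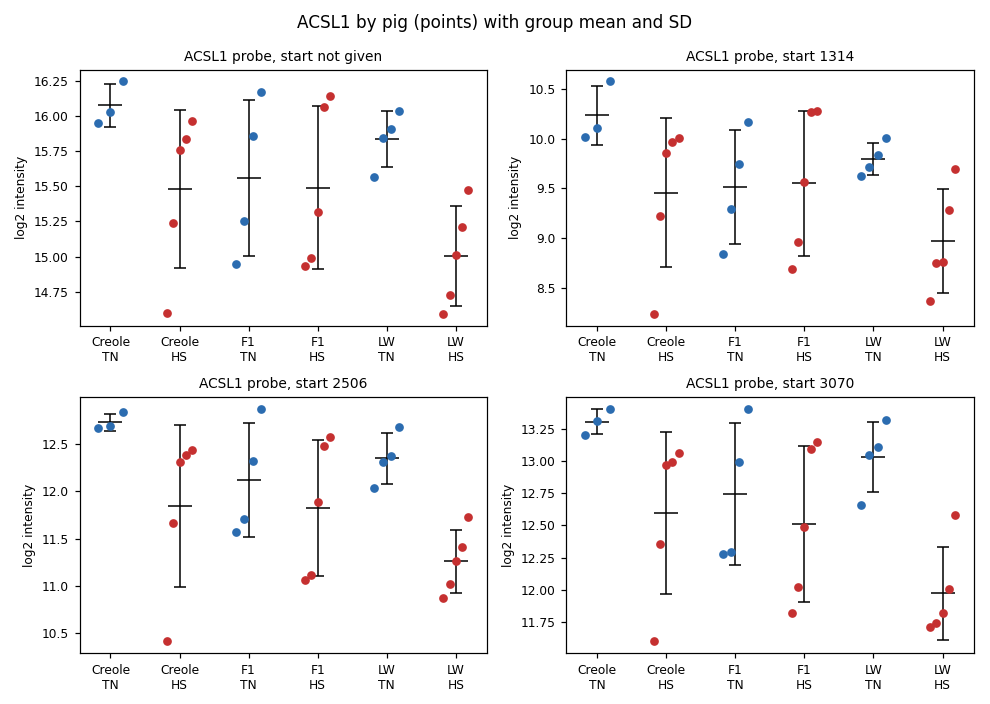
Log2 intensity of the 4 ACSL1 probes in each pig (points, blue for TN and red for HS), with the mean and SD of the 6 groups. On the probe starting at base 3070 the Creole and LW pigs in HS lie below all TN pigs of their breed, and the F1 pigs overlap.

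Within a breed, the 4 ACSL1 probes differed by -0.89 to -0.59 in Creole, by -0.29 to 0.04 in F1 and by -1.09 to -0.82 in LW. None of these passed the test, the smallest adjusted p being 0.0743 in LW for the probe at base 3070. The test of the difference between breeds in their HS response did not separate them either, with an adjusted p of at least 0.897 on each ACSL1 probe. Levels in TN F1 pigs were spread wider than in the other TN groups, with an SD of 0.55 on the probe at base 3070 against 0.10 in Creole and 0.27 in LW.

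FABP4, the fatty acid binding protein of adipocytes, was lower in HS on 7 of its 8 probes across breeds, and 2 of them were called. Within breeds, all 8 probes were lower in F1 and 7 were lower in LW, whereas in Creole 7 of the 8 were higher in HS, by up to 0.18 with a median over the probes of 0.04, none of them called. On the probe starting at base 811, TN pigs were at 12.95, 13.09 and 13.17 in Creole, 12.99, 13.10, 13.66 and 13.73 in F1, and 12.79, 12.84, 12.91 and 13.07 in LW. HS pigs were at 12.55, 12.56, 12.85, 13.07 and 13.15 in Creole, 12.49, 12.67, 12.84, 13.05 and 13.29 in F1, and 11.96, 12.04, 12.12, 12.21 and 12.69 in LW. The groups did not overlap in LW and overlapped in Creole and F1. The difference across breeds was -0.49 ± 0.11 (adjusted p = 0.00409), a level 1.41 times lower in HS. It was negative on all 5 slides, from -0.78 to -0.29, where it is not adjusted for breed. Without the 6 arrays highest in keratinocyte markers it was -0.39 and no longer called (adjusted p = 0.061).

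In LW alone the same probe fell by 0.70 on the log2 scale, with an SE of 0.18 (adjusted p = 0.0461), which was the only member called within a breed. It differed by -0.50 ± 0.18 in F1 (adjusted p = 0.164) and by -0.24 ± 0.19 in Creole (adjusted p = 0.703), and the test of a difference between breeds gave an adjusted p of 0.897. In that limma test, 3 of the 8 FABP4 probes had an unadjusted p under 0.05, and none passed after adjustment. Omission of a single array ended the call in LW for 15 of the 26 arrays, with a difference between -0.73 and -0.63 in those 15 and adjusted p-values up to 0.133. The call was also lost with the slide as a fixed block (-0.59, adjusted p = 0.134), without the keratinocyte-rich arrays (-0.58, adjusted p = 0.345), without the muscle-rich arrays (-0.70, adjusted p = 0.0872) and with no filter on dim probes (adjusted p = 0.0605).

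The second called FABP4 probe, starting at base 207, differed by -0.21 ± 0.07 across breeds (adjusted p = 0.038). HS pigs were at 15.11, 15.28, 15.48, 15.54 and 15.68 in LW, below the TN pigs at 15.75, 15.77, 15.78 and 15.96. Creole pigs were at 15.55, 15.58 and 15.75 in TN and at 15.46, 15.50, 15.61, 15.69 and 15.88 in HS, with full overlap. Omission of a single array ended this call for 14 of the 26 arrays, with differences between -0.21 and -0.18 in those 14 and adjusted p-values up to 0.0735. The call was also lost without the keratinocyte-rich arrays (-0.18, adjusted p = 0.148) and with no filter on dim probes (adjusted p = 0.0508). The brightest FABP4 probe, starting at base 556, was at 18.20 to 18.47 in all pigs and differed by 0.00 ± 0.03 between HS and TN (adjusted p = 0.953). When all 8 probes were averaged, FABP4 differed by -0.17 (adjusted p = 0.0347), so that the call of the gene depends on how its probes are summarised.

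**Figure D3:**
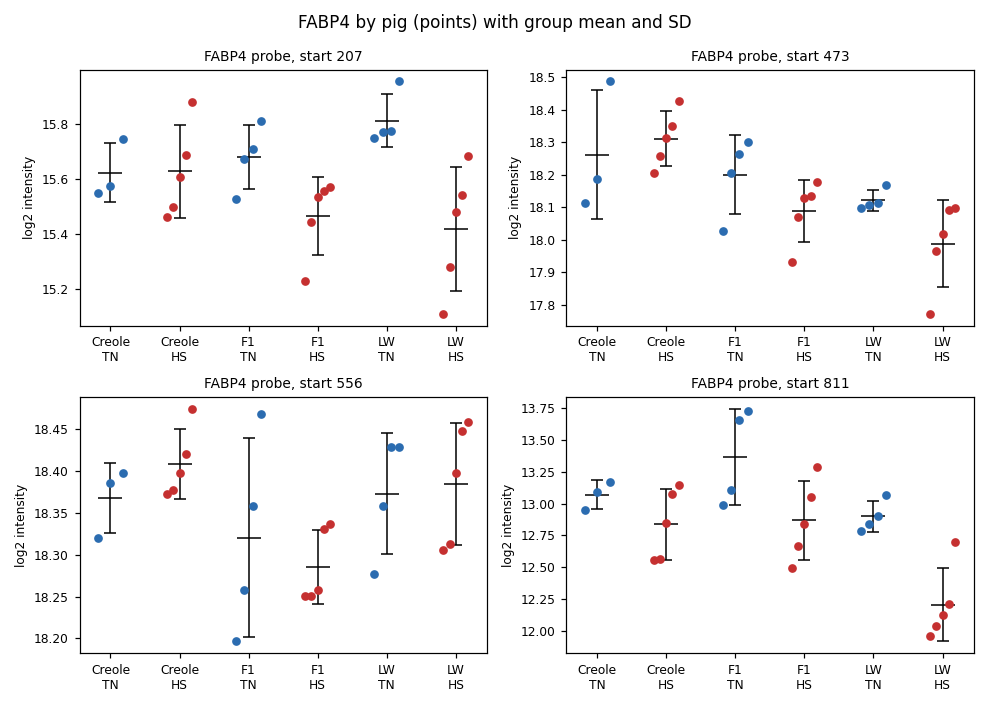
Log2 intensity of 4 FABP4 probes in each pig (points, blue for TN and red for HS), with the mean and SD of the 6 groups. The panel of the probe starting at base 811 shows the LW pigs in HS at 11.96 to 12.69, below the LW pigs in TN, whereas the panel of the probe starting at base 556 spans 18.20 to 18.47 in all groups.

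LPL, the enzyme that frees fatty acids from lipoproteins, showed HS minus TN differences from 0.09 to 0.25 over its 7 probes, and none was called. Under scaling to the 75th percentile of each array, the brightest of these probes differed by -0.0026. The closest was the probe starting at base 335, with a difference of 0.25 ± 0.09 (adjusted p = 0.0599) and 14 of 15 HS pigs above the TN mean of their breed. Its F1 pigs were at 10.86, 10.86, 10.89 and 11.09 in TN and at 10.98, 11.42, 11.44, 11.47 and 11.65 in HS, so that 1 HS pig lay within the TN range. Without the 4 arrays highest in muscle markers, the LPL probes at bases 335 (0.31, adjusted p = 0.0155) and 2157 (0.28, adjusted p = 0.0334) were called higher in HS. Its Creole pigs were at 11.30, 11.48 and 11.48 in TN and at 10.92, 11.46, 11.50, 11.59 and 11.75 in HS, with full overlap. The brightest LPL probe, designed on the baboon sequence, had TN values of 14.39, 14.60, 15.03 and 15.29 in F1 and HS values of 15.12, 15.31, 15.62, 15.71 and 15.81, a difference of 0.69 ± 0.22 (adjusted p = 0.133). On that probe the difference was -0.24 ± 0.24 in Creole and -0.15 ± 0.22 in LW, and the test between breeds gave an adjusted p of 0.897.

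The remaining uptake genes moved little with temperature. CD36, the fatty acid translocase of the plasma membrane, differed by -0.02 to 0.10 over its 5 probes, with adjusted p-values of at least 0.207. FABP5, the epidermal fatty acid binding protein that is also made by adipocytes and macrophages, differed by -0.09 to -0.04 over 4 probes, with adjusted p-values of at least 0.419. Under the alternative settings the brightest probes reached -0.15 for CD36 and -0.19 for FABP5, and neither was called (adjusted p of at least 0.123 and 0.091). SLC27A1 differed by -0.14 to 0.00 over 3 probes (adjusted p of at least 0.316), and VLDLR by -0.13 to 0.00 over 3 tested probes (adjusted p of at least 0.315). The SLC27A1 probes starting at bases 1037 and 1887 and the VLDLR probe starting at base 410 were dim. Their mean levels were 6.09, 5.63 and 5.93, near the 5.51 of the untested VLDLR probe, so that a fall would be hard to see on them.

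In separate tests within the breeds, limma called no member in Creole, none in F1 and 1 in LW. Before adjustment, 2, 8 and 11 of the 34 member probes had a p under 0.05 in Creole, F1 and LW. The same held for 4975, 7133 and 7477 of the 44703 tested probes. After adjustment, 0.0716% of all tested probes were called in Creole, 0.421% in F1 and 1.5% in LW. No member was called for the interaction between breed and temperature, against 0.00224% of all tested probes. In that test, 4 of the 34 member probes and 2336 of the 44703 tested probes had an unadjusted p under 0.05.

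The second set of comparisons asked how the breeds differed with temperature taken into account. Between LW and Creole, 7 of the 34 member probes were called, 5 lower and 2 higher in LW, and they belonged to LPL, FABP4 and CD36. That is 20.6% of the members against 14.3% of all tested probes, of which 6.89% were higher and 7.43% lower in LW. The probes of LPL accounted for 4 of the 7 calls and did not point the same way.

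The LPL probes starting at bases 335 and 669 were lower in LW than in Creole. On the probe at base 669, Creole pigs were at 11.74, 11.93 and 11.98 in TN and at 11.41, 11.80, 11.92, 12.17 and 12.19 in HS. LW pigs were at 11.09, 11.45, 11.47 and 11.69 in TN and at 11.50, 11.55, 11.59, 11.63 and 11.70 in HS, so that all LW pigs lay below all but the lowest Creole pig, and the TN groups did not overlap. LW minus Creole was -0.36 ± 0.11 (adjusted p = 0.0279) on this probe and -0.35 ± 0.11 (adjusted p = 0.0287) on the probe at base 335, that is 1.28 and 1.27 times lower in LW. Each of these calls was lost without Creole HS replicate 1 or 2, Creole TN replicate 1 or 3, LW HS replicate 3 or LW TN replicate 3, with differences of -0.34 to -0.32 and adjusted p-values up to 0.0593 at base 669 and 0.0612 at base 335. The call at base 335 was also lost without a temperature term (-0.37, adjusted p = 0.0533).

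Towards the other end of the transcript the order of the breeds was turned. On the probe starting at base 2473, Creole pigs were at 13.20, 14.77 and 15.76 in TN and at 13.40, 14.52, 15.01, 15.03 and 15.07 in HS. LW pigs were at 15.21, 15.36, 15.47 and 15.59 in TN and at 15.45, 15.53, 15.62, 15.75 and 15.77 in HS. F1 pigs were at 14.36, 14.64, 15.24 and 15.36 in TN and at 14.64, 14.71, 14.77, 14.80 and 15.80 in HS. All 9 LW pigs were at 15.21 or more, and 7 of the 8 Creole pigs were below that level, with a Creole pig in TN reaching 15.76. LW minus Creole was 0.94 ± 0.26 (adjusted p = 0.0169), a level 1.92 times higher in LW. The probe starting at base 2599 was 1.42 times higher in LW, with a difference of 0.50 ± 0.16 (adjusted p = 0.0366), and omission of a single array ended that call for 8 arrays (0.37 to 0.50, adjusted p up to 0.0945) but not the call at base 2473 (0.73 to 1.14, adjusted p up to 0.0421). The call at base 2599 was also lost under scaling to the 75th percentile (0.43, adjusted p = 0.0745), with array weights (0.41, adjusted p = 0.0555), without a temperature term (0.49, adjusted p = 0.0582), with 6 group means (0.49, adjusted p = 0.0592) and without the muscle-rich arrays (0.47, adjusted p = 0.0715). Without the keratinocyte-rich arrays all 4 LPL calls were lost while the differences were of similar size, at 0.95 for base 2473 (adjusted p = 0.105), 0.52 for base 2599 (adjusted p = 0.151), -0.33 for base 335 (adjusted p = 0.126) and -0.32 for base 669 (adjusted p = 0.167). The intensity of a probe depends on the amount of RNA and on how well it binds, and whether the sequence under these probes differs between the breeds was not tested, so that the folds are those of the signal. The probe between both regions, at base 2157, differed by 0.08 ± 0.11 (adjusted p = 0.666).

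The spread among pigs was unequal at the probe at base 2473, with an SD of 1.29 in Creole TN and 0.71 in Creole HS against 0.16 in LW TN and 0.14 in LW HS. Over the 26 arrays the probes at bases 335 and 669 were correlated at r = 0.94 and those at bases 2473 and 2599 at r = 0.96, whereas the probes at bases 335 and 2473 gave r = -0.12. These values describe probes of 1 gene on the same arrays. Within the 4 slides that held LW and Creole pigs, LW minus Creole was -0.60 to -0.22 on the probe at base 335 and 0.26 to 2.39 on the probe at base 2473, with the same sign on each slide. On the probe at base 2599 it was -0.06 to 1.43 and negative on 1 slide. These slide differences are not adjusted for temperature. The -0.60 and the 0.26 came from a slide where both LW pigs were in TN and the only Creole pig was in HS. The 2.39 came from a slide with 1 Creole pig, at 13.20. With the slide as a fixed block, the differences were -0.32 at base 335 and -0.31 at base 669 and no longer called (adjusted p = 0.0576 and 0.064). When the 7 probes were averaged, LPL differed by 0.03 between LW and Creole (adjusted p = 0.866), so that the gene average does not show what its probes show. The pattern along the transcript was noticed in these values and was not itself tested.

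**Figure D4:**
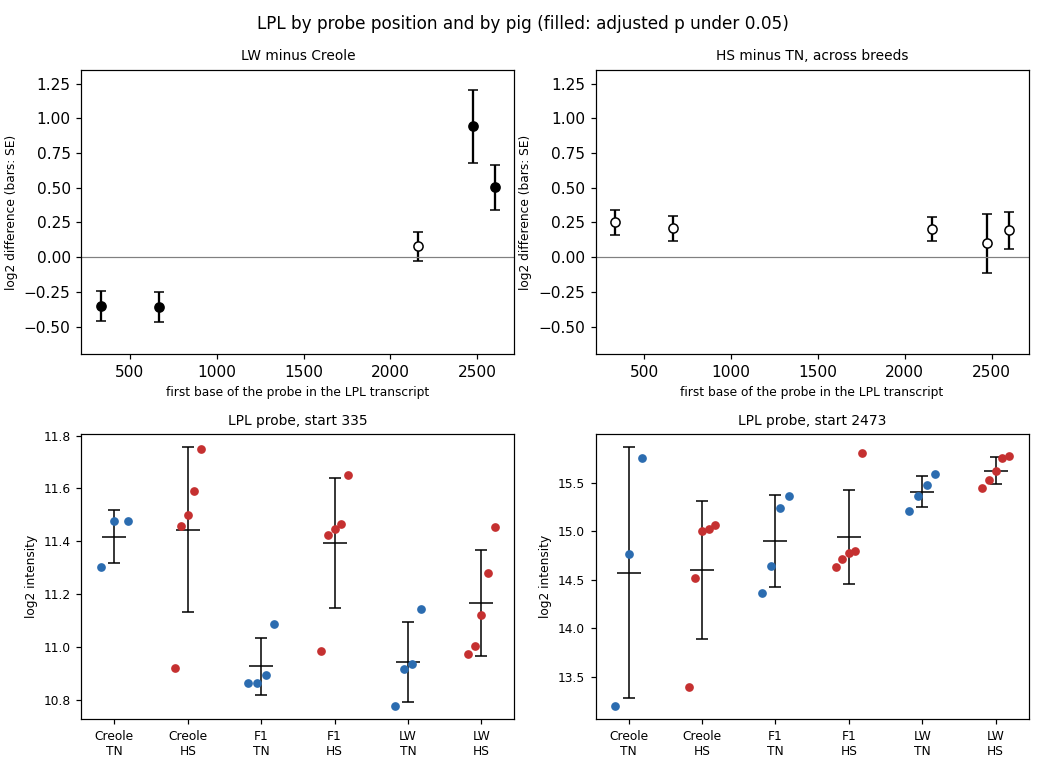
Top, log2 difference and SE of the 5 LPL probes with a stated start, by start in the transcript, for LW minus Creole (left) and HS minus TN (right), filled where the adjusted p is under 0.05. Bottom, log2 intensity in each pig (blue for TN, red for HS) with the mean and SD of each group; LW pigs lie low on the probe at base 335 and at 15.21 or more on the probe at base 2473.

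FABP4 was lower in LW than in Creole on all 8 probes, from -0.44 to -0.01, although the brightest differed by 0.02 under scaling to the 75th percentile, and 2 were called. On the probe starting at base 473, Creole pigs were at 18.11, 18.19 and 18.49 in TN and at 18.21, 18.26, 18.31, 18.35 and 18.43 in HS, and LW pigs at 18.10, 18.11, 18.11 and 18.17 in TN and at 17.77, 17.97, 18.02, 18.09 and 18.10 in HS. The HS groups of both breeds did not overlap. The difference was -0.25 ± 0.06 (adjusted p = 0.00571), with all 9 LW pigs below the Creole mean of their temperature. Without the keratinocyte-rich arrays it was -0.20 and no longer called (adjusted p = 0.0916). The probe at base 811, whose values are given above, differed by -0.44 ± 0.13 (adjusted p = 0.0242). Its within-slide differences, not adjusted for temperature, ran from -0.84 to 0.43 and were negative on 3 of 4 slides. The call was lost without Creole HS replicate 1 or 3 or LW HS replicate 2 (-0.40 to -0.39, adjusted p up to 0.0575), without a temperature term (adjusted p = 0.134), and without the keratinocyte-rich (-0.33, adjusted p = 0.205) or the muscle-rich arrays (adjusted p = 0.0862).

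CD36 was lower in LW on each of its 5 probes, and the 4 probes with a stated start differed by -0.07 at base 399, -0.15 at base 834, -0.21 at base 1969 and -0.23 at base 2173. The differences between these probes were not tested. The last of these, on the brightest CD36 probe, was called (SE 0.07, adjusted p = 0.034). Creole pigs were at 16.23, 16.33 and 16.35 in TN and at 16.18, 16.22, 16.45, 16.50 and 16.74 in HS, and LW pigs at 16.04, 16.21, 16.22 and 16.22 in TN and at 15.96, 16.01, 16.08, 16.14 and 16.41 in HS. The TN groups did not overlap and the HS groups did. The call was lost without Creole HS replicate 1 or 3, LW HS replicate 2, 3 or 4 or LW TN replicate 1 (-0.22 to -0.18, adjusted p up to 0.0778), with the slide as a fixed block (-0.19, adjusted p = 0.0711), with 6 group means (adjusted p = 0.061) and without the keratinocyte-rich (-0.18, adjusted p = 0.191) or the muscle-rich arrays (adjusted p = 0.116), and the mean of the 5 probes differed by -0.14 (adjusted p = 0.189).

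For ACSL1, the LW minus Creole differences were -0.48 to -0.36 on its 4 probes and did not pass the test (adjusted p of at least 0.176). FABP5 was at 0.08 to 0.12 above Creole in LW (adjusted p of at least 0.351), and the SLC27A1 differences lay between -0.08 and 0.06 (adjusted p of at least 0.679). VLDLR differed by -0.29 ± 0.10 on the probe starting at base 2012, just outside the threshold (adjusted p = 0.0522).

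The F1 cross was compared with both parent breeds. No member was called between F1 and Creole in limma, against 0.262% of all tested probes. Before adjustment, 3 of the 34 member probes and 4358 of the 44703 tested probes had a p under 0.05 in that comparison. Between F1 and LW, 2 members were called, both higher in F1, and 4.22% of all tested probes were called. FABP4 on the probe at base 811 was 0.58 ± 0.13 higher in F1 (adjusted p = 0.0161), that is 1.49 times, with all 9 F1 pigs above the LW mean of their temperature, but did not pass the threshold with the slide as a fixed block (0.44, adjusted p = 0.0579), without a temperature term (adjusted p = 0.072) or without the keratinocyte-rich arrays (0.55, adjusted p = 0.136).

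VLDLR on the probe at base 2012 was 0.37 ± 0.10 higher in F1 than in LW (adjusted p = 0.035). F1 pigs were at 8.40, 8.56, 8.74 and 8.81 in TN and at 8.12, 8.43, 8.50, 8.58 and 8.84 in HS. LW pigs were at 7.97, 8.25, 8.35 and 8.45 in TN and at 8.06, 8.07, 8.07, 8.20 and 8.28 in HS, overlapping F1 at the upper end. Omission of a single array ended this call for 9 arrays (0.32 to 0.36, adjusted p up to 0.0717), and so did the slide as a fixed block (0.33, adjusted p = 0.114), the model without a temperature term (adjusted p = 0.0566) and the omission of the keratinocyte-rich arrays (0.37, adjusted p = 0.222). The brightest VLDLR probe, at base 2975, lay between 10.95 and 11.46 in all pigs and differed by 0.14 ± 0.07 (adjusted p = 0.279). In the single test over the 3 breeds, 4 members were called, namely the FABP4 probes at bases 473 and 811, the LPL probe at base 2473 (adjusted p = 0.0419) and the VLDLR probe at base 2012 (adjusted p = 0.0288), against 11.3% of all tested probes. Omission of a single array ended the LPL call for 12 arrays (adjusted p up to 0.0755), and the VLDLR call was lost without LW HS replicate 2, 3 or 4 or LW TN replicate 3 (adjusted p up to 0.065) and with the slide as a fixed block (adjusted p = 0.0952). Percentile scaling ended the calls of LPL (adjusted p = 0.0653) and of FABP4 at base 473 (adjusted p = 0.0792). The model without a temperature term ended those of LPL (adjusted p = 0.0533) and of FABP4 at base 811 (adjusted p = 0.0705). The LPL call was also lost with no filter on dim probes (adjusted p = 0.0549). All 4 calls were lost without the keratinocyte-rich arrays (adjusted p from 0.105 to 0.217).

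Genes that act with the uptake genes were read from lists, each gene represented by its brightest tested probe. None of the 11 measured LPL partners, among them ANGPTL4, which inactivates LPL, and LMF1, which is needed for its folding, was called by limma for HS minus TN or for LW minus Creole, with 1 and 2 at an unadjusted p under 0.05. ANGPTL4 differed by -0.32 between HS and TN (adjusted p = 0.621) and by 0.95 between LW and Creole (adjusted p = 0.161). Their median difference was -0.04 for HS minus TN and 0.00 for LW minus Creole.

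Of the 7 lipoprotein receptor genes measured, LRPAP1, the chaperone of this receptor family, fell by 0.51 in HS (adjusted p = 0.0178), and SCARB1, the HDL receptor, was lower by -0.27 in LW (adjusted p = 0.0332). Of 9 other transporter genes, SLC27A3 rose by 0.39 in HS (adjusted p = 0.032), and GOT2 and SLC27A2 fell, by 0.28 (adjusted p = 0.0222) and 0.29 (adjusted p = 0.0235). GOT2, the mitochondrial aspartate aminotransferase also described as a membrane fatty acid binding protein, was lower in LW too (-0.37, adjusted p = 0.0114). PMP2, a fatty acid binding protein of peripheral myelin, rose by 0.68 in HS (adjusted p = 0.00239) and was the only called gene of 8 other binding proteins, among them FABP3 at -0.26 (adjusted p = 0.0658).

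None of the 3 measured long-chain acyl-CoA synthetases other than ACSL1 was called in either comparison, where each comparison had 1 gene at an unadjusted p under 0.05. ACSL3 differed by -0.16, ACSL4 by -0.06 and ACSL5 by 0.06 between HS and TN. Of the 20 regulators of uptake genes, limma called none for HS minus TN, where 3 had an unadjusted p under 0.05, and PPARG, the master regulator of adipocyte genes, differed by 0.12 (adjusted p = 0.341). Between LW and Creole 3 were higher and 2 lower, led by KLF5 (0.58, adjusted p = 0.0137) and PPARGC1A (0.36, adjusted p = 0.0201) among the higher and PPARA (-0.38, adjusted p = 0.0141) and PPARD (-1.01, adjusted p = 0.0247) among the lower.

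Markers of cell types moved with both comparisons, and their part in the results above was not tested. Fibroblast markers were called higher in HS for 5 of 10 genes and higher in LW for 6 of 10, and their mean level was 13.49 to 14.70 in TN and 14.15 to 15.03 in HS pigs. Of 9 adipocyte markers, ADIPOQ (0.16) and ADIRF (0.52) rose and CIDEA (-0.43) fell in HS, while 3 were lower in LW, and the mean level was 15.26 to 15.73 in TN and 15.21 to 15.78 in HS. Red blood cell markers were lower in HS for 2 of 6 genes, and 1 of 8 endothelial markers was lower in HS and 1 higher in LW.

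None of the 10 macrophage, 9 skeletal muscle or 5 keratinocyte markers was called in limma for either comparison, where 1 macrophage marker had an unadjusted p under 0.05 for HS minus TN and none of the others did. Of the 10 macrophage markers, 1 was lower in HS, and their median difference was 0.17. All 5 keratinocyte markers nevertheless had positive differences for HS minus TN (median 0.87) and LW minus Creole (median 0.76), and all 9 muscle markers had positive differences for HS minus TN (median 0.57) and negative ones for LW minus Creole (median -0.92). Muscle and keratinocyte markers varied widely between pigs, with mean levels of 9.37 to 14.61 and 6.42 to 11.46. The 6 arrays highest in keratinocyte markers were 1 Creole, 2 F1 and 2 LW pigs in HS and 1 LW pig in TN, and the 4 highest in muscle markers were 2 Creole pigs and 1 LW pig in HS and 1 Creole pig in TN. With the keratinocyte-rich arrays left out, 1 member was called for HS minus TN and none for LW minus Creole, while the count over all tested probes went from 5447 to 2653 and from 6401 to 1625. With the muscle-rich arrays left out, 6 members were called for HS minus TN, namely FABP4 at bases 207 and 811, which were also called with all arrays, and FABP4 at base 51, the FABP4 probe with no stated start and LPL at bases 335 and 2157, which were not, and 4 of the 7 members remained for LW minus Creole, while the count over all tested probes went to 5367 and 2547.

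The members were also compared with each other among pigs of the same group. After subtraction of the group means, the brightest probes gave 21 pairs over the 26 arrays, and none passed the threshold after adjustment over the pairs (permutation test within groups, two-sided, 100000 permutations). Each value holds for the probe used and not for every probe of its gene. Over the 26 arrays the brightest FABP4 probe correlated with the other 7 FABP4 probes at -0.30 to 0.35, whereas those 7 correlated with each other at 0.52 to 0.87. The brightest LPL probe, of baboon design, correlated with the other LPL probes at -0.21 to 0.60, and the brightest VLDLR probe with the other tested VLDLR probes at 0.56 and 0.69. ACSL1 was highest with VLDLR (Pearson's r = 0.598, permutation p = 0.00795, adjusted p = 0.059, Spearman's rho = 0.666, permutation p = 0.0031, adjusted p = 0.0651) and with LPL (r = 0.59, permutation p = 0.00843, adjusted p = 0.059, rho = 0.581, permutation p = 0.00886, adjusted p = 0.081). CD36 and FABP5 gave r = 0.612 (permutation p = 0.00563, adjusted p = 0.059) and rho = 0.551 (permutation p = 0.0116, adjusted p = 0.081). Without the 2 arrays farthest from the median of the first gene, these 3 correlations were 0.651, 0.607 and 0.53. Within TN and within HS they were 0.791 and 0.514 for ACSL1 with VLDLR, 0.551 and 0.619 for ACSL1 with LPL, and 0.625 and 0.628 for CD36 with FABP5. The brightest FABP4 probe gave negative values with LPL (r = -0.384, permutation p = 0.0895, adjusted p = 0.268) and with VLDLR (r = -0.405, permutation p = 0.0796, adjusted p = 0.268).

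**Figure D5:**
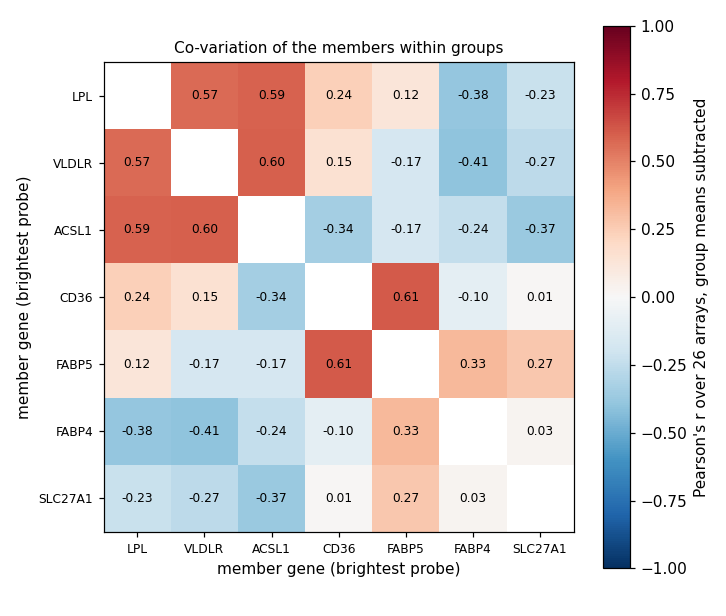
Pearson's r between the brightest probes of the 7 genes over 26 arrays, with the means of the 6 breed and temperature groups subtracted. The brightest probes of LPL, VLDLR and ACSL1 form a block of positive values between 0.566 and 0.598, and CD36 with FABP5 gives 0.612.

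Likeness to the rest of the array was read as Pearson's r of the log2 levels of the same brightest probes over all 26 arrays among 9960 other named genes, as a description. The genes most like ACSL1 were ACLY, the cytosolic enzyme that makes acetyl-CoA for fatty acid synthesis (r = 0.919), BBS1 (0.917) and VPS28 (0.902). The highest values of the other members were lower, with CDKN1A for VLDLR (0.799), PANK1, a kinase of coenzyme A synthesis, for LPL (0.789), TMEM220 for CD36 (0.762), PCK1, the gluconeogenic and glyceroneogenic enzyme, for FABP5 (0.752), NR1H3, the liver X receptor alpha, for SLC27A1 (0.747) and SMAD2 for FABP4 (0.731).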

How the data were processed

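Per the labels and the study's methods, RNA of SCAT from 26 pigs was labelled with Cy3 and hybridised to a porcine single-colour array, and the authors scanned the slides and extracted the spots with Agilent Feature Extraction 10.10.1.1. The deposited scanner files hold the median and mean pixel intensity, the local background and a processed intensity of each spot, together with the flags of the software as a score of 0 or 1. As an alternative, the authors' own table of log2 quantile-normalized intensity was used as deposited. Here, median intensities were quantile-normalized without background correction, set to missing for non-uniform spots (at most 16 per array), transformed to log2 and averaged over spots of a probe, in R 4.3.3 with limma 3.58.1. A probe was kept if at least 8 arrays showed it well above background, which left 44703. Linear models with an intensity trend were fitted to all 26 arrays, with breed and temperature as fixed effects for the main comparisons and with 6 group means for the changes within breeds and the interaction. The pen, slaughter, father and mother effects of the study's own model do not appear in the labels and could not be included. Adjustment of p-values followed Benjamini and Hochberg and covered every tested probe. Arrays were separate pigs, numbered within a group in the order of the deposit, and slides were read from the array files. The fits were tested on simulated data. The alternatives were the background correction, the scaling, the series matrix, the filter, the slide, array weights, the trend, the model terms, the mean over probes and the omission of each array; leaving out the arrays highest in markers of keratinocytes or muscle was added after the data were seen. Genes were named from the annotation columns of the files and a RefSeq table of the Sscrofa11.1 assembly, and no genome sequence was used. Each gene outside the members was represented by its brightest tested probe, and a list gene is named when called for HS minus TN or LW minus Creole, at most 4 a list by p-value, and a few others were named for their function after their values were seen. Members and lists were chosen with earlier results of these data known. A probe outside the rule carries the FABP5 transcript in its name and was not counted; it differed by -0.05 in HS minus TN.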

Additional observations from a re-analysis of the deposited data

Results flagged for a closer look

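Among the 17 member probes that were called in any comparison or were the brightest of their gene, 85 probe and group combinations of 4 or 5 pigs were checked for a pig far from the rest of its group by Dixon's criterion, and 5 held such a pig, where chance gives about 1 in 20 groups. CD36 on the probe at base 2173 was 16.04 in LW TN replicate 1, with the nearest other pig at 16.21. FABP4 on the probe at base 207 was 15.96 in LW TN replicate 3, with the nearest other at 15.78. LPL on the probe at base 335 was 11.09 in F1 TN replicate 3, with the nearest other at 10.89. F1 HS replicate 1 stood above its group on the LPL probe at base 2473, at 15.80 against 14.80, and on the LPL probe at base 2599, at 15.53 against 15.10.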

How the results depend on the processing

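Counts of member probes called are given first. For HS minus TN across breeds, 4 members were called (5447 over all tested probes), 9 with scaling to the 75th percentile (6288) and 1 without the 6 arrays highest in keratinocyte markers (2653). Omission of each array gave 3 to 7 (3973 to 6562 over all tested probes), with 7 without Creole HS replicate 3 (6562). In F1, array weights gave 1 against 0 (556 over all tested probes, against 188). In LW, against 1 (669 over all tested probes), percentile scaling and array weights gave 3 each (979 and 1209), and the filter on all arrays gave 2 (825). No filter (475), the slide as a fixed block (114) and omission of the keratinocyte-rich (11) or muscle-rich arrays (319) gave 0. Omission of each array gave 0 to 4 (112 to 1137). For LW minus Creole, against 7, the slide block, the model without temperature and the omission of the 4 arrays highest in muscle markers gave 4 each (6025, 4193 and 2547 over all tested probes, against 6401). The omission of the keratinocyte-rich arrays gave 0 (1625), and omission of each array gave 3 to 10 (4823 to 8190). It gave 3 without Creole HS replicate 1 or LW HS replicate 3, and 4 without Creole HS replicate 3 or LW HS replicate 2. For F1 minus LW, against 2 (1888 over all tested probes), the slide block (363), the model without temperature (671) and the omission of the keratinocyte-rich arrays gave 0, and omission of each array 1 to 2 (756 to 2653). For any breed difference, against 4 (5063 over all tested probes), the model without temperature gave 2 (2969) and the omission of the keratinocyte-rich arrays 0. Omission of each array gave 2 to 5 (3491 to 6439), with 2 without LW HS replicate 2, 3 or 4 or LW TN replicate 3. Over all tested probes, the number of calls without the keratinocyte-rich arrays was 18 against 1888 for F1 minus LW and 695 against 5063 for any breed difference. No single array ended the calls of ACSL1 at bases 2506 and 3070 or of FABP4 at base 811 for HS minus TN across breeds.

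Some differences changed sign. For HS minus TN, the brightest CD36 probe gave 0.00015 in the authors' table, 0.0103 without a breed term, 0.00575 with 6 group means, 0.0669 without the keratinocyte-rich arrays, 0.0361 as the mean of the probes and -0.0257 to 0.0152 over the omissions. Among the alternatives that kept its sign, it reached -0.146. The brightest FABP4 probe gave -0.00043 with normexp, -0.0404 with percentile scaling, -0.00094 without the muscle-rich arrays, -0.166 as the mean of the probes and -0.00685 to 0.0216 over the omissions. The brightest LPL probe gave -0.00258 with percentile scaling, and the brightest SLC27A1 probe -0.0713 to 0.00904 over the omissions. For LW minus Creole, FABP4 gave 0.0177 with percentile scaling and SLC27A1 -0.00765 without the muscle-rich arrays. For LPL, the mean of the 7 probes, which differ in sign, gave 0.0345 against -0.36 for the brightest probe alone, which stayed at -0.47 to -0.27 over the omissions. The cause of the other changes was not tested. No paired analysis was possible because the labels give no replicate numbers that link pigs across groups.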
